A study of Mus musculus with 38 samples.

Results

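The epidermal differentiation complex is a stretch of mouse chromosome 3 that holds the genes for the proteins of the cornified layer of skin. It was taken as chr3:90400000-93650000 in mm10, a span of 3.25 Mb, or 0.119% of the genome. Every histone mark interval that overlapped this span was kept, which gave 1635 of the 1006702 intervals in 14 lists. The lists were made by MINT-ChIP, a barcoded chromatin immunoprecipitation, for H3K27ac and H3K4me1 in epidermal stem cells (EpdSCs) of adult back skin and for H3K4me1 in cultured EpdSCs.

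The skin came from male K14rtTA; TRE-myc-Sox9 mice, in which the keratin 14 promoter drives rtTA and doxycycline (DOX) turns on SOX9 throughout the basal epidermis. D0 mice carried the same alleles and were not induced, while W1, W2 and W6 mice received DOX at postnatal day 21 and were kept on DOX chow for 1, 2 and 6 weeks. Mouse age and exposure to DOX itself thus ran with the time of SOX9 and cannot be told apart from it. No list of DOX-treated mice without the SOX9 transgene was used here. The W12 cells came from newborn back-skin epidermis that was grafted onto Nude female hosts, left to heal and then induced for 12 weeks, so that the time on DOX cannot be told apart from the graft. EpdSCs were sorted as CD49f-high, Ly6A-high and CD34-negative cells, with cells positive for CD31, CD45, CD117 or CD140a removed. In culture, EpdSCs from newborn male Krt14-rtTA pups carried lentiviral, MYC-tagged and DOX-inducible SOX9, either wild type (WT), without the DNA-binding HMG domain (ΔHMG) or without the transactivation domain (ΔTA). Those cultures, grown with DOX, were set against WT-transduced cells without DOX. Each list pools the replicates of its mark and time point or condition, so no spread between replicates could be computed and no difference below was tested. The intervals of uncertainty given with shares are exact 95% Clopper-Pearson intervals and cover counting error only.

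Keratinocytes leave the basal layer, switch on keratins 1 and 10, and then fill the inner face of their membrane with cross-linked proteins as they flatten into the cornified layer. The genes for these proteins lie together in the complex. They include loricrin and involucrin, the small proline-rich proteins (SPRRs) and late cornified envelope proteins (LCEs), and the filaggrin family of S100-fused proteins that bundle keratin filaments, with the calcium-binding S100 proteins at both ends. H3K4me1 marks enhancers that are primed or active, and H3K27ac marks enhancers and promoters that are active, so the pair describes which of these genes basal cells hold ready before differentiation.

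The span held 80 protein-coding genes. Of these, 14 were S100 genes, 15 *Sprr*, 21 *Lce*, 2 *Lor* and *Ivl*, 7 filaggrin family genes (*Flg*, *Flg2*, *Hrnr*, *Rptn*, *Tchh*, *Tchhl1* and *Crnn*) and 8 other genes of the complex, such as *Pglyrp3*, *Kprp* and *Smcp*. The remaining 13 genes were neighbours. The *Sprr2* and *Lce* genes are near copies of one another, so reads may have been placed on the wrong copy or discarded there. Values for single members of these families, and low values for the families as groups, are therefore uncertain.

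The 5 keratinocyte markers checked, *Krt5*, *Krt14*, *Trp63*, *Itga6* and *Col17a1*, had an H3K27ac peak at a start site in every skin list. None of the 3 leukocyte and 2 fibroblast markers had one. Of the other marker lists, *Krt10* had a peak in every list and *Krt1* in none, the endothelial marker *Pecam1* had one at W6 (4.77-fold over background) and W12 (14.9-fold) but *Cdh5* had none, and the melanocyte marker *Dct* had one at W1 (3.85-fold) but *Tyr* and *Kit* had none. The summed fold of the 5 basal markers was 167 (D0), 70.1 (W1), 91.9 (W2), 84.1 (W6) and 59.5 (W12). The part of other cells in the W12 results was not tested.

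The sequences under the H3K27ac summits that carry the results are given first. They are the 200 bases around a summit, read from the GRCm38 RefSeq assembly on the plus strand, with matches to any of 5 motifs in capitals. The motifs were TGANTCA for AP1, AACAATG for SOX, TGTGGT for RUNX factors, AGATAA for the GATA factors and GGGNGTGG for KLF, searched on both strands, and no 2 matches overlapped in the windows shown. The first pair lies under the peaks with the highest scores of the locus at D0, at *S100a3* and *S100a11*, which every list called. Neither window holds a match.
*S100a3* chr3:90586520-90586719: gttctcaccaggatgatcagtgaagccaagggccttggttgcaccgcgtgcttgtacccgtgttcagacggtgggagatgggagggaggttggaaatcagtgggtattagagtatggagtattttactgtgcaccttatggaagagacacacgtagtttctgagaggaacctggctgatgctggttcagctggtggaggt
*S100a11* chr3:93520587-93520786: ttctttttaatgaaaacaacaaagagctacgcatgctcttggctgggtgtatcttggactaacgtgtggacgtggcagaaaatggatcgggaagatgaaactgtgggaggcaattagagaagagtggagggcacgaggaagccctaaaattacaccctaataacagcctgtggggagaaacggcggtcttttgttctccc

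Of the 5 peaks that D0 lacked and W2, W6 and W12 shared, 3 were intergenic, and their windows are shown because they are the lasting gains away from start sites. They lie near *S100a6*, *Flg2* and *Sprr4*, and none of them holds a match. The *Sprr4* window contains a run of short tandem repeats.
*S100a6* distal, chr3:90629634-90629833: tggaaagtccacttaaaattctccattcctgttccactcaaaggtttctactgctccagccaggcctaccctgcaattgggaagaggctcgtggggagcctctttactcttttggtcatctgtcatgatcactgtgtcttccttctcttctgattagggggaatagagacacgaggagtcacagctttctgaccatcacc
*Flg2* distal, chr3:93175379-93175578: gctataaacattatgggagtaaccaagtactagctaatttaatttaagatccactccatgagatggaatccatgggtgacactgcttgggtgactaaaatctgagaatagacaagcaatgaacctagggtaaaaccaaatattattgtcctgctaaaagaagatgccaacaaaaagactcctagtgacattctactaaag
*Sprr4* distal, chr3:92513643-92513842: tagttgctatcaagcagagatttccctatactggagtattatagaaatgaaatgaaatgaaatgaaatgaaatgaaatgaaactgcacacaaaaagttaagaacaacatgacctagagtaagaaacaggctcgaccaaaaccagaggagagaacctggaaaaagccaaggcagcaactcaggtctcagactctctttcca

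The next 4 windows lie under the 4 highest scored peaks that were called at D0 and in no later list. The first *Hrnr* window holds 2 RUNX matches and the *S100a10* window 1 AP1 match. The second *Hrnr* window is a GT repeat with 84 GT dinucleotides, and its 5 RUNX matches lie within that repeat.
*Pglyrp4* distal, chr3:90751569-90751768: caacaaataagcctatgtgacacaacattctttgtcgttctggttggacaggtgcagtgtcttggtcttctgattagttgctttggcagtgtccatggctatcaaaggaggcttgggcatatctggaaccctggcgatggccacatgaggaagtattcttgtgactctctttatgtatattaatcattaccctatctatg
*Hrnr* distal, chr3:93352372-93352571: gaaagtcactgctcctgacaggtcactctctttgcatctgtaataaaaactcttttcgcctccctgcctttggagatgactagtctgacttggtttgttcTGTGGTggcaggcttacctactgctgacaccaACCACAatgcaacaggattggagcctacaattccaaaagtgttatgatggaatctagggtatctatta
*S100a10* distal, chr3:93549064-93549263: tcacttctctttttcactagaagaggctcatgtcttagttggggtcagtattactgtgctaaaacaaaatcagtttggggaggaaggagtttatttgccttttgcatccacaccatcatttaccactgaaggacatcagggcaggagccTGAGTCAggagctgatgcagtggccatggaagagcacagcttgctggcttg
*Hrnr* distal, repeat, chr3:93350734-93350933: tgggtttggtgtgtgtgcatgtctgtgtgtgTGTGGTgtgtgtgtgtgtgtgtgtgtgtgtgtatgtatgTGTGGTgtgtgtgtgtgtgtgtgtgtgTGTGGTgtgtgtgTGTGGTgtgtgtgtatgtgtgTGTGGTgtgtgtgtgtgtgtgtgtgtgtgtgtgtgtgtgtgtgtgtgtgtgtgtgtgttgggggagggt

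Over all summit windows of the locus, no motif was more or less frequent than in the whole lists beyond counting error in the counts made for the 5 lists. The SOX letters were found in 1 of 62 windows at D0 (1.61%, against 2.07% of all D0 peaks), in 2 of 57 at W2 (3.51%, against 2.77%) and in 4 of 64 at W12 (6.25%, interval 1.73 to 15.2%, against 2.72%). Of the 23 W2 peaks that D0 lacked, 1 held them (4.35%, against 3.81% of all such peaks).

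The locus was richer in both marks than the genome at every time point. H3K27ac peaks numbered 62 (D0), 73 (W1), 57 (W2), 57 (W6) and 64 (W12). They covered 2.06%, 2.498%, 2.48%, 2.04% and 1.81% of the span, against 1.001% of the genome at D0 and 0.847% at W12. H3K4me1 domains numbered 140 (D0), 111 (W1), 106 (W2), 126 (W6) and 114 (W12). They covered 16.5% of the span at D0 and W6, with lower values of 14.6% (W1), 13.1% (W2) and 14.2% (W12), while the genome was at 11.4%, 9.67%, 10.8%, 10.002% and 9.90% in list order. Between D0 and W2 the covered share of the locus was thus lower by a larger part than that of the genome. At the ends of the span at D0, the nearest H3K27ac peaks lay 20.8 kb inside (3.33-fold) and 6.25 kb outside (5.33-fold) its low end, and 51.3 kb inside (15.99-fold) and 659 kb outside (3.998-fold) its high end.

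The marks were densest in the S100 blocks at the ends of the complex. The 295.7 kb up to *S100a9* were covered by H3K4me1 over 42.4% (D0), 42.3% (W1), 41.2% (W2), 44.8% (W6) and 37.6% (W12). The 178 kb of the *S100a11* and *S100a10* end were covered over 55.4%, 54.0%, 44.6%, 55.3% and 51.9%. Between *S100a9* and *Pglyrp3* lay a nearly bare stretch of 1319 kb, where the values were 2.48%, 1.68%, 1.01%, 1.31% and 0.990%. The blocks in between differed in their course: the *Sprr* block was at 17.7% (D0), 12.2% (W2) and 21.8% (W12), the *Lce* block stayed between 11.4% and 14.7%, and the filaggrin block was at 26.6% (D0), 15.3% (W2) and 18.2% (W12). S100 genes held 29 of the 62 H3K27ac peaks at D0, the *Sprr* and *Lce* genes 2 each.

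The S100 promoters with a peak at D0 kept a peak in every list. *S100a11* and *S100a3*, both calcium-binding proteins of epithelial cells, had the highest H3K27ac folds of the complex at D0. Here fold is the summit pileup over the background that the peak caller assumed, as the authors' files give it. Folds of pooled lists also move with the depth and enrichment of the libraries. *S100a11*, *S100a3* and the constant peaks of the locus together are therefore set against all peaks kept in every list. *S100a11* was at 52.6-fold at D0 (78 reads at the summit), 26.9 at W1 (34 reads), 23.2 at W2 (32 reads), 34.6 at W6 (57 reads) and 13.5 at W12 (18 reads). On the log2 scale its W2 value was 1.18 below D0. Of the 10367 D0 peaks kept in all lists, 7.23% lay at or below that difference. That share was 27.8% (W1), 18.5% (W6) and 2.49% (W12) for *S100a11*. For *S100a3* it was 4.98% (W1), 26.1% (W2), 7.38% (W6) and 22.3% (W12). Both peaks were picked for their high D0 values, so low shares can follow from that choice alone. The peak of the neighbouring gene *Chtop*, at 45.3-fold at D0, had shares of 27.8% (W1), 14.1% (W2), 9.77% (W6) and 8.20% (W12). Whether either drop was larger than that of peaks equally strong at D0 was not tested. *S100a3* was at 52.6, 17.7, 32.3, 27.4 and 23.4-fold. Its rank from the top of the list was 0.314% (D0), 1.45% (W1), 0.241% (W2), 1.14% (W6) and 0.253% (W12), and that of *S100a11* 0.320%, 0.172%, 1.19%, 0.272% and 3.44%. *S100a11* thus stood higher in its list than *S100a3* at W1 and W6, and lower at W2 and W12.

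At 4 further S100 promoters the fold was also highest at D0. *S100a10*, the annexin A2 partner, was at 39.98-fold at D0 (59 reads), 17.7 (W1), 26.0 (W2), 22.1 (W6) and 14.9 (W12). *S100a6* was at 33.3, 14.6, 21.8, 17.9 and 12.8-fold, *S100a16* at 25.3, 19.2, 16.1, 22.7 and 12.04-fold, and *S100a14* at 19.3, 12.3, 12.6, 16.1 and 9.92-fold. Each of these 4 promoters was lowest at W12, and all were called in every list. The peak at the adjoining *S100a13* and *S100a1* start sites was called in every list too, and at 9.996 (D0), 6.16 (W1), 13.3 (W2), 12.5 (W6) and 8.50-fold (W12) it was highest at W2. The 25 D0 peaks of the locus that every list called had a median log2 difference from D0 of -0.65 (W1), -0.42 (W2), -0.26 (W6) and -0.54 (W12), beside -0.59, -0.29, -0.06 and -0.61 for the 10367 such peaks of the whole list. The medians were below 0 at every time point in the locus and in the whole list.

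A second set of S100 promoters was called in later lists but not at D0. *S100a4*, known for its part in cell motility, had no promoter peak at D0 and was at 4.62-fold at W1 (5 reads), 8.42 at W2 (11 reads), 7.75 at W6 (12 reads) and 8.50 at W12 (11 reads). *S100a2* had none at D0 and was at 4.62-fold (W1), 5.61 (W2), 8.35 (W6) and 23.4 (W12), where the W12 peak also spans the *S100a3* start site and carries its fold. *S100a5*, *S100a7a*, *S100a8* and *S100a9* had no promoter peak in any list. *S100a8* and *S100a9* encode calprotectin, which keratinocytes make in injured or inflamed skin.

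Cornified envelope genes had almost no called H3K27ac peaks at their promoters. Of the 67 genes of the complex, 12 had an H3K27ac peak within 1 kb of a start site at D0, 13 (W1), 15 (W2), 15 (W6) and 12 (W12), where 44.5%, 43.1%, 44.1%, 48.4% and 36.2% of all protein-coding genes had one. S100 genes made up 8 of the 12 at D0 and 10 in each later list. The *Sprr* genes had 1, 0, 1, 2 and 1 of 15, the *Lce* genes 1, 1, 0, 0 and 0 of 21, and the filaggrin family 1 of 7 at W2 only.

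There were few exceptions. *Sprr1a*, a cross-bridging envelope protein, was at 5.33-fold at D0 (7 reads), had no peak at W1, and was at 8.42 at W2 (11 reads), 4.77 at W6 (7 reads) and 7.79 at W12 (10 reads). Its close relative *Sprr1b* had a peak at W6 alone (4.17-fold, 6 reads). *Lce6a* was at 5.33-fold at D0 (7 reads) and 10.8 at W1 (13 reads), and had no peak later. *Ivl*, involucrin, the early scaffold of the envelope, had a promoter peak at W2 alone (6.32-fold, 8 reads), and *Crnn*, cornulin, likewise at W2 alone (5.61-fold, 7 reads). The smallest pileup called anywhere was 4 reads at D0, W2 and W12, 3 at W1 and 5 at W6, so the *Sprr1b*, *Ivl* and *Crnn* peaks were at most 4 reads above the lowest in their lists. By rank, *Lce6a* at W1 stood at 9.53% of its list from the top, and *Sprr1a* at 29.0% (W2) and 21.5% (W12).

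*Lor*, loricrin, the main protein of the cornified envelope, had no promoter peak. A peak over its coding exon was called at D0 (4.66-fold, 6 reads), W1 (3.84, 4 reads), W2 (4.21, 5 reads) and W6 (4.17, 6 reads). Those pileups were near the smallest called in each list, and the peak was missing at W12. *Tchh*, trichohyalin, a protein of the inner root sheath and hair medulla, had a peak over its exons in every list, at 10.3, 10.3, 12.3, 9.24 and 7.08-fold. *Flg*, *Flg2*, *Hrnr*, *Rptn*, *Tchhl1*, *Kprp*, *Sprr3*, *Sprr4*, all *Sprr2* genes and all *Lce* genes but *Lce6a* had no promoter peak in any list.

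**Figure D1:**
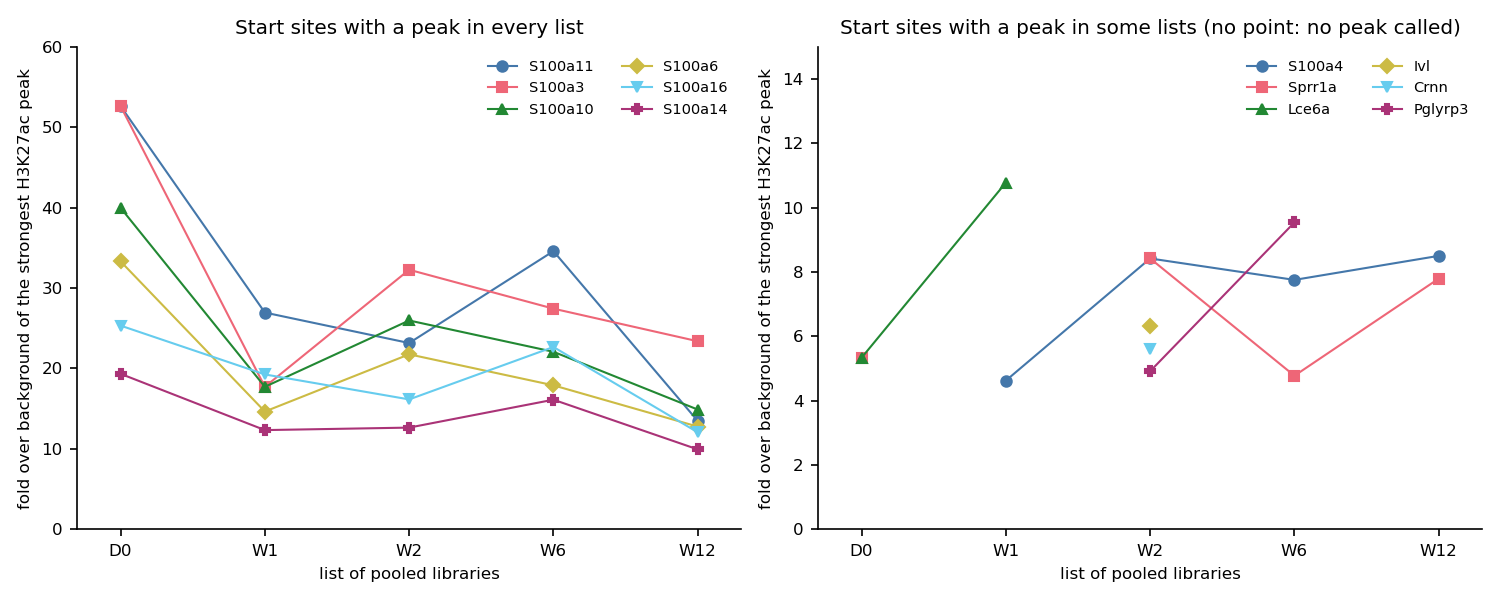
Fold over background of the strongest H3K27ac peak within 1 kb of a start site (y axis) in each skin list of pooled libraries (x axis), for start sites with a peak in every list at left and in some lists at right, where a missing point means that no peak was called. *S100a11* and *S100a3* were at 52.6-fold at D0 and lower in every later list, and *S100a4* had no point at D0.

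H3K27ac was lost and gained in the locus about as often as elsewhere. A D0 peak counted as lost when no peak of the later list overlapped it by 1 bp, and a later peak as gained when no D0 peak did. Lost were 17 of 62 D0 peaks at W1 (27.4%, interval 16.9 to 40.2%, whole list 37.4%), 25 at W2 (40.3%, 28.1 to 53.6%, whole list 38.6%), 23 at W6 (37.1%, 25.2 to 50.3%, whole list 37.8%) and 32 at W12 (51.6%, 38.6 to 64.5%, whole list 53.7%). Gained were 29 of 73 at W1 (39.7%, 28.5 to 51.9%, whole list 41.3%), 23 of 57 at W2 (40.4%, 27.6 to 54.2%, whole list 40.1%), 16 of 57 at W6 (28.1%, 17.0 to 41.5%, whole list 39.8%) and 31 of 64 at W12 (48.4%, 35.8 to 61.3%, whole list 56.2%). Each of these 8 intervals included the whole-list share. Without the S100 genes, the lost and gained shares at W2 and W12 were higher than in the whole span, but they rest on few peaks.

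Joined over the 5 lists, the peaks formed 117 intervals, and 24 of them were in every list (20.5%, interval 13.6 to 29.0%, against 15.6% of the 65294 intervals of the whole lists). These constant intervals were 14 of the 41 of S100 genes and 3 of the 17 of the filaggrin family, but none of the 13 of *Lor*, *Ivl*, *Sprr* and *Lce* genes. A D0 peak missing at W2 and found at W6 and W12 was seen once (1 of 62, 1.61%, whole list 2.99%), and no peak was first called at W6 and kept at W12 (0 of 57, whole list 2.85%). Of the joined intervals, 49 were called in a single later list (41.9%, whole lists 45.8%), 7 at D0 only (5.98%, whole lists 9.29%), 14 at D0 and in part of the later lists before going missing (11.97%, whole lists 7.75%), 9 were lost and found again (7.69%, whole lists 9.02%), and 14 were gained in at least 2 later lists (11.97%, whole lists 12.5%). The exact interval of each share included that of the whole lists.

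The lasting gains at W2 were 5 peaks (5 of 57, 8.77%, interval 2.91 to 19.3%, whole list 6.08%). The strongest, chr3:90628759-90630875, lay 15454 bp past the *S100a6* start site and was at 12.3-fold at W1, 11.2 at W2 (15 reads), 6.56 at W6 and 7.79 at W12. The next, chr3:93174833-93176012, lay between *Crnn* and *Flg2*, 24198 bp before the *Flg2* start site, and was at 3.85, 9.12, 5.96 and 11.3-fold. The peak near *Sprr4*, chr3:92513570-92514074, lay 13077 bp from its start site and was at 6.32 (W2), 7.16 (W6) and 8.50 (W12). The other 2 were the *S100a4* and *S100a2* start sites. At *Sprr4* a nearer peak, 4000 bp from its start site, went the other way, at 7.997-fold (D0), 3.08 (W1) and 4.16 (W2), and was in neither the W6 nor the W12 list.

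Peaks found only at D0 were weak. There were 7 (11.3%, interval 4.66 to 21.9%, whole list 20.04%), and the 5 highest scored were at 4.66-fold (6 reads) near *Pglyrp4*, *Hrnr* and *S100a10* and at 3.998-fold (5 reads) near *Hrnr* and 2310046K23Rik. They include the GT repeat shown above. The strongest D0 peak missing from W2, W6 and W12, at 7.33-fold (10 reads), lay 7444 bp from the *S100a10* start site at chr3:93547297-93547636 and was still called at W1.

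At intergenic sites, constant peaks near *Pglyrp3* and *Crnn* had higher folds at W1, W2 and W6 than at D0, while most constant peaks had lower ones. The peak 18100 bp (as joined over the lists) from the *Pglyrp3* start site, a gene for an antibacterial peptidoglycan recognition protein, was at 10.7-fold (D0), 12.3 (W1), 18.2 (W2), 16.1 (W6) and 9.21 (W12). A peak 14215 bp from the *Crnn* start site was at 6.66, 16.9, 11.9, 8.35 and 6.38-fold. At W12 both folds were near their D0 value. Of all peaks kept in every list, 69.9% (*Pglyrp3*) and 76.5% (*Crnn*) then had an equal or lower log2 difference from D0. The *Pglyrp3* start site itself had a peak within 1 kb at W2 (4.91-fold) and W6 (9.54-fold, 15 reads) only.

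Fewer H3K4me1 domains of D0 were found at W2 than in the other lists, in the locus as in the whole list. Of the 140 D0 domains, 37 were lost at W1 (26.4%, whole list 27.8%), 53 at W2 (37.9%, interval 29.8 to 46.4%, whole list 32.4%), 31 at W6 (22.1%, whole list 26.6%) and 41 at W12 (29.3%, whole list 31.2%). The loss was largest at W2 and smallest at W6 in both, and the interval of the locus at W2 included the whole-list share. Gains were few: 7 of 111 at W1 (6.31%, whole list 5.96%), 11 of 106 at W2 (10.4%, interval 5.30 to 17.8%, whole list 19.98%), 24 of 126 at W6 (19.0%, whole list 17.1%) and 11 of 114 at W12 (9.65%, whole list 15.6%). At W2 the interval of the locus lay below the share of the whole list, but without the S100 genes it did not (15%, interval 7.10 to 26.6%). Gains of W2 that were kept at W6 and W12 numbered 2 of 106 (1.89%, interval 0.229 to 6.65%, whole list 4.998%), near *Lce3a* and *S100a10*.

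**Figure D2:**
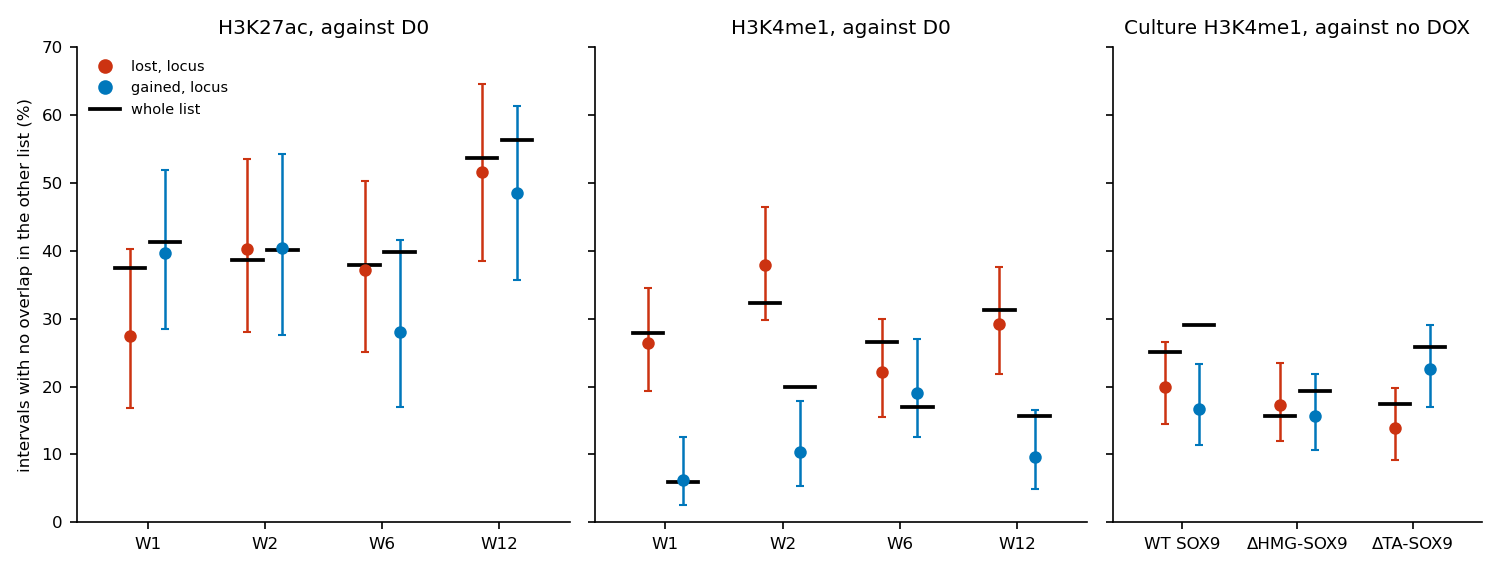
Percent of intervals of the locus with no overlap in the other list (y axis) for each comparison with D0 or with culture without DOX (x axis), with points for lost and gained intervals, bars for exact 95% intervals that cover counting error only, and black lines for the whole list. H3K4me1 gains at W2 (10.4%) and culture gains with WT SOX9 (16.8%) lay below their whole-list lines at 19.98% and 29.1%.

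Of the 53 domains lost at W2, 20 were found again at both W6 and W12, although the W12 cells came from grafts. They made up 20 of 140 D0 domains (14.3%, interval 8.95 to 21.2%), against 7.62% of the whole list, which lies below the interval. Among domains in the upper part of their list by rank the share was 5%, against 4.84% of the whole list, so the difference was not seen there. They comprised 7 of the filaggrin family, 3 of *Lor* and *Ivl*, 3 of other genes of the complex, 2 each of *Sprr*, *Lce* and neighbouring genes, and 1 of S100 genes. A D0 domain in none of W2, W6 and W12 was about as frequent as elsewhere, with 29 of 140 (20.7%, whole list 17.5%), as was one kept in every list, with 76 of 140 (54.3%, whole list 53.3%).

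The domain over or beside the *Sprr1b* start site gave the plainest course, since it was 3000 bp (D0) and 1800 bp (W1) wide, absent at W2, and 6000 bp (W6) and 6200 bp (W12) wide afterwards. The domain over or beside the *Lor* start site was 3200 bp (D0) and 4200 bp (W1), absent at W2, then 1800 bp (W6) and 2800 bp (W12). At the *Tchhl1* start site, a gene of the trichohyalin type, it was 3600 bp at D0 and W1, absent at W2, then 2000 bp (W6) and 1800 bp (W12). The *S100a9* start site had 800 bp at D0, none at W1 and W2, then 3800 bp (W6) and 3200 bp (W12). Single genes read the same way by the part of a gene body and its 5 kb flanks that was covered: *Sprr1b* was covered over 25.0% (D0), 15.02% (W1), 0% (W2), 50.1% (W6) and 51.7% (W12), and *Sprr3*, an envelope protein of lining epithelia, over 16.4%, 0%, 0%, 21.3% and 42.6%. *Lor* was covered over 35.7%, 32.6%, 0%, 13.98% and 21.8%. At *Sprr3* the cover at W6 came from a domain not called before, and the D0 domain was found again at W12 only. By the p-value of epic2, the D0 domains at *Sprr1b* (3.55e-27), *Lor* (1.26e-25) and *S100a9* (9.41e-18) stood in the lower part of their list. A D0 domain at 3.56e-31 already ranked at 62.7% from the top. Whether their absence at W2 reflects calls near the threshold was not tested.

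Other differentiation genes did not share this gap. *Ivl* was covered over 50.9% (D0), 41.6% (W1), 49.4% (W2), 50.9% (W6) and 57.2% (W12). *Sprr1a*, on the far side of *Sprr3* from *Sprr1b*, was covered over 54.4%, 47.7%, 52.7%, 56.1% and 81.2%, and *Crnn* over 55.9%, 55.9%, 50.6%, 50.6% and 55.9%. *Kprp*, a keratinocyte proline-rich protein, was between 40.9% and 64.9%. The gap in cover at W2 was therefore found at *Sprr1b*, *Sprr3* (there also at W1), *Lor* and *Tchhl1* but not at *Ivl*, *Sprr1a*, *Crnn* or *Kprp*.

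**Figure D3:**
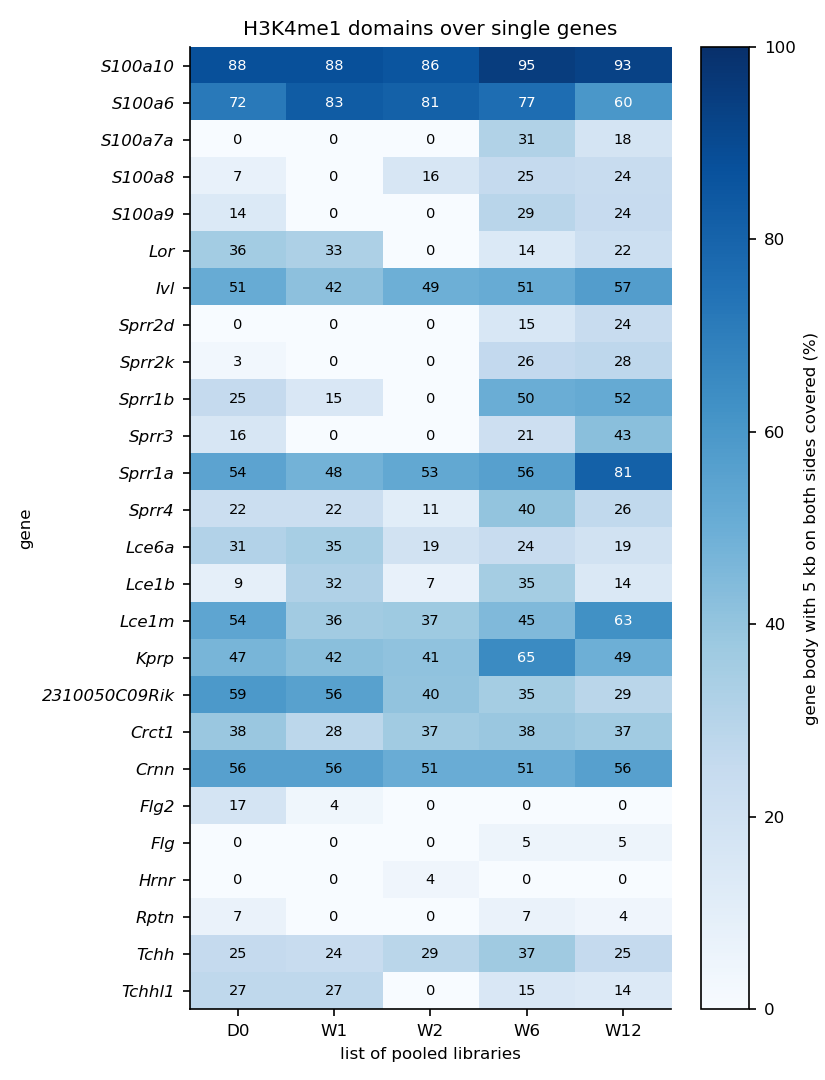
Percent of each gene body with 5 kb flanks that was covered by H3K4me1 domains (colour) for named genes (rows) in the 5 skin lists of pooled libraries (columns). *Sprr1b*, *Lor* and *Tchhl1* were at 0% at W2 and covered again at W6 and W12. *Sprr3* was at 0% at W1 and W2, and its cover at W6 came from a new domain. *Flg2* went from 17.4% at D0 to 0% from W2 on.

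In the filaggrin family, 15 of 30 D0 domains were lost at W2 (50%, interval 31.3 to 68.7%, whole list 32.4%), 8 at W6 (26.7%, whole list 26.6%) and 10 at W12 (33.3%, whole list 31.2%). The W2 interval included the whole-list share. At W2 the neighbouring genes lost 18 of 31 (58.1%), *Lor* and *Ivl* 4 of 9 and *Sprr* genes 4 of 9 (44.4% each). *Lce* genes lost 4 of 11 (36.4%), other genes of the complex 4 of 24 (16.7%) and S100 genes 4 of 26 (15.4%). Of the 30 D0 domains of the filaggrin family, 8 were in none of W2, W6 and W12 (whole list 17.5%). They included domains distal to *Hrnr* at chr3:93340401-93343800 and chr3:93345001-93346000. *Flg2*, a filaggrin-like protein of the upper layers, was among the genes whose loss lasted. Its upstream domain chr3:93190201-93194400, 5810 bp before the start site, had a p-value of 4.26e-288 at D0, was 800 bp wide at W1 and was in no later list, and the domain at its start site went from 3200 bp at D0 to 1200 bp at W1 and none later. *Flg* itself, which encodes profilaggrin, had no domain within 5 kb at D0, W1 or W2 and was covered over 4.90% at W6 and W12. A domain between *Flg2* and *Flg*, within chr3:93266201-93270000 in each list that held it, measured 800 bp at D0 and 1000 bp at W1, and was absent at W2 and back at 3800 bp (W6) and 2600 bp (W12). Around *Rptn* and upstream of *Tchh*, 5 domains were absent at W2 and back at W6 and W12, among them chr3:93428801-93432800, 9530 bp before the *Tchh* start site, which was 4000 bp (D0), 2800 bp (W1), 4000 bp (W6) and 3800 bp (W12).

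New domains at W6 that lasted to W12 were few and lay in the *Sprr*, *Lce* and S100 genes. There were 7 of 126 (5.56%, interval 2.26 to 11.1%, whole list 3.61%): 3 of *Sprr*, at *Sprr2d*, *Sprr2j-ps* and *Sprr3*, 3 of the *Lce3* genes, and 1 at *S100a7a*, a relative of psoriasin. A single domain was new at W12 (1 of 114, 0.877%, whole list 4.49%), near *Lce1m*. The *S100a7a* domain was 4600 bp at W6 and 2600 bp at W12. *S100a8* was covered over 7.23% (D0), 0% (W1), 16.3% (W2), 25.3% (W6) and 23.5% (W12), and *S100a9* over 13.8%, 0%, 0%, 29.0% and 24.4%. *S100a7a*, *S100a8* and *S100a9* thus held their highest H3K4me1 coverage at W6. *Sprr2d* (15.3% at W6 and 23.9% at W12) and *Sprr2j-ps* (12.4% and 14.1%) held theirs at W12. *Sprr2k* (25.8% and 27.5%) did too, but its cover came from the *Sprr1b* domain, which reached into its 5 kb flank. *Sprr2a3*, *Sprr2b* and *Sprr2e* were at 0% in every skin list.

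A start site lay in an H3K4me1 domain for 25 of the 67 genes of the complex (D0), 23 (W1), 22 (W2), 29 (W6) and 24 (W12), beside 53.1%, 49.8%, 55.9%, 55.6% and 47.7% of all protein-coding genes.

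As groups, the *Sprr* genes with 5 kb flanks were covered by H3K4me1 over 7.13% (D0), 4.99% (W1), 3.76% (W2), 11.9% (W6) and 14.4% (W12), while all protein-coding genes were at 18.2%, 15.6%, 17.2%, 15.4% and 15.5%. *Lor* and *Ivl* were at 43.3%, 37.1%, 24.6%, 32.4% and 39.4%. The S100 genes stayed between 57.7% and 64.3%, the *Lce* genes between 5.40% and 6.60%, and the filaggrin family went from 15.6% at D0 to 9.002% at W2 and 11.1% at W12. H3K27ac covered the S100 genes over 18.3% to 21.1%, where all protein-coding genes were between 1.42% and 2.08%, and the *Lce* genes over 0.307% at D0, 0.829% at W1 and 0.132% or less later.

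**Figure D4:**
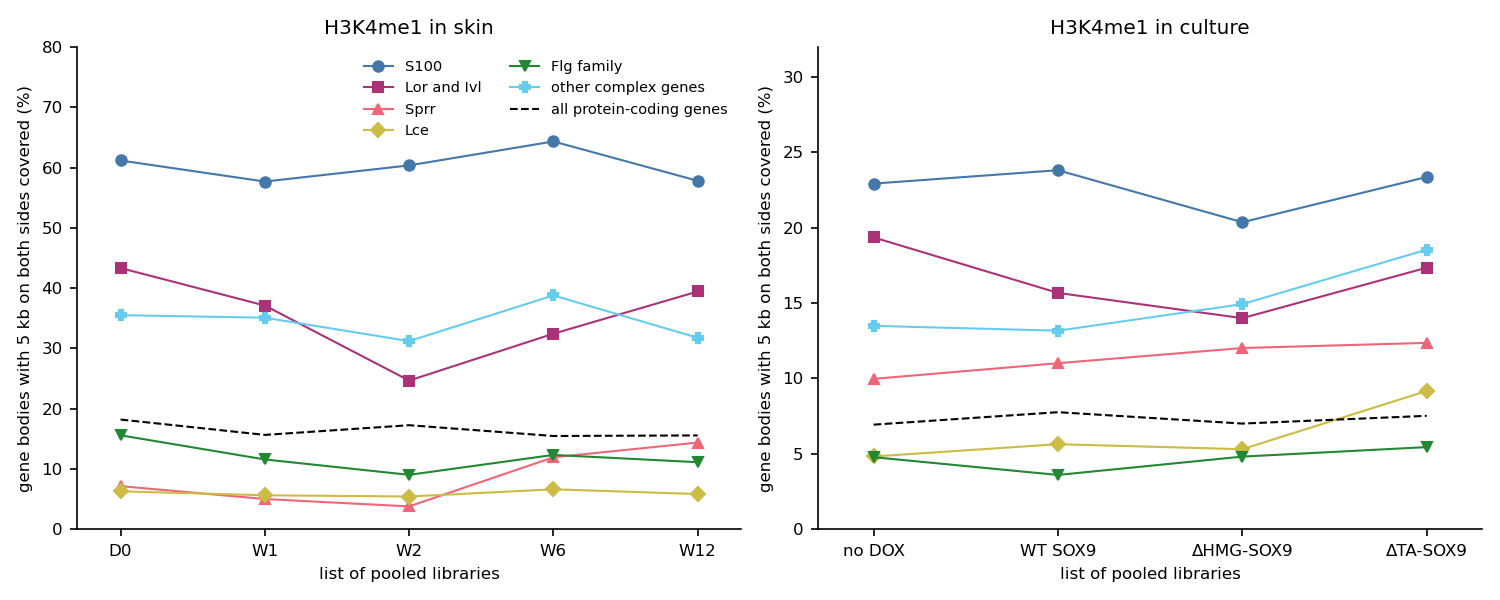
Percent of gene bodies with 5 kb flanks that was covered (y axis) in each list of pooled libraries (x axis), by gene group, with the dashed line for all protein-coding genes, for H3K4me1 in skin and H3K4me1 in culture. H3K4me1 over the *Sprr* genes was lowest at W2 (3.76%) and highest at W12 (14.4%), and the *Lce* genes in culture were highest with ΔTA-SOX9 (9.17%).

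Except at W12, nearly all H3K27ac peaks were gained inside H3K4me1 domains that were called at D0. Of the peaks gained at W2, 21 of 23 lay in a D0 domain (91.3%, interval 72.0 to 98.9%, whole list 89.3%), and of those gained at W6, 16 of 16 (whole list 90.9%). Of the peaks gained at W12, 18 of 31 did (58.1%, 39.1 to 75.5%, whole list 56.8%). Peaks lost at W2 still lay in a W2 domain in 24 of 25 cases (96.0%, 79.6 to 99.9%, whole list 86.7%). In the locus as in the whole list, most lost H3K27ac calls thus lay where H3K4me1 was still called.

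In cultured EpdSCs the locus held 180 H3K4me1 domains without DOX, 167 under WT SOX9, 179 under ΔHMG-SOX9 and 199 under ΔTA-SOX9, covering 6.10%, 6.25%, 5.91% and 7.15% of the span. Of the 140 D0 domains of skin, 89 were found in culture without DOX (63.6%, interval 55.0 to 71.5%, whole list 63.1%). The domain with the highest score lay 1899 bp from the *Lce3a* start site, at 9.81-fold, followed by domains in *Sprr2j-ps* (4.83-fold) and *Sprr2k* (5.54-fold), then *S100a14* (3.84-fold) and *Ivl* (4.06-fold). The *Ivl* domain, over its start site, was at 3.23-fold (WT), 3.87-fold (ΔHMG) and 3.76-fold (ΔTA) in the induced cultures, and all 5 domains were called in every culture list. *Sprr1b* was likewise called in every culture list, at 3.22, 2.53, 3.24 and 3.14-fold.

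WT SOX9 added a smaller share of domains here than over the whole list. With WT SOX9, 28 of 167 were gained (16.8%, interval 11.4 to 23.3%, whole list 29.1%) and 36 of 180 lost (20%, whole list 25.1%). With ΔHMG-SOX9, 28 of 179 were gained (15.6%, whole list 19.3%) and 31 lost (17.2%, whole list 15.6%). With ΔTA-SOX9, 45 of 199 were gained (22.6%, whole list 25.8%) and 25 lost (13.9%, whole list 17.5%). Domains found with WT SOX9 and in no other culture list were 21 of 167 (12.6%, 7.96 to 18.6%), against 20.6% of the whole list, while those in the ΔTA-SOX9 list alone were 28 of 199 (14.1%, whole list 13.4%) and those in the ΔHMG-SOX9 list alone 10 of 179 (5.59%, whole list 6.27%). Both intervals of the WT list lay below its whole-list share, and those of the mutant lists included theirs. These comparisons share the culture without DOX, and the difference between them was not tested.

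Domains in the WT list alone were led by a pair at *Lce1a1*, chr3:92638612-92640476 at 4.96-fold and chr3:92646050-92647063 at 5.13-fold, the latter over its exon. Others lay 10822 bp from the *Sprr2a3* start site (5.16-fold), over the exon of *Lce1h* (4.03-fold) and 55430 bp from *Pglyrp3* (4.66-fold). The pair at *Lce1a1* met skin domains that were called at W2 and in no other skin list, chr3:92637801-92640200 and chr3:92646001-92647600, with 1589 bp and 1014 bp shared. Another W2-only skin domain, 21742 bp from the *Lor* start site, met a domain of the WT list alone over 794 bp. In all, 3 of the 11 domains gained at W2 met a culture domain gained with WT SOX9 (27.3%, interval 6.02 to 61.0%, whole list 21.6%), and none met one gained with ΔHMG-SOX9 (whole list 6.57%) or ΔTA-SOX9 (whole list 9.57%). For gains with WT SOX9 it was 0 of 7 at W1 (whole list 33.2%), 1 of 24 at W6 (19.3%) and 0 of 11 at W12 (18.6%). Domains gained at W12 met a gain with ΔTA-SOX9 in 3 of 11 cases (27.3%, interval 6.02 to 61.0%, whole list 13.1%) and one with ΔHMG-SOX9 in 2 of 11 (whole list 8.15%). This meeting was looked for after the values were seen, and the W2 interval for WT SOX9 included the share of the genome.

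With ΔTA-SOX9, 12 of the 34 domains of *Lce* genes were gained (35.3%, interval 19.7 to 53.5%), and the interval included the whole-list share of 25.8%. Start sites of *Lce* genes lay in a domain in 5 of 21 cases without DOX, 5 (WT), 6 (ΔHMG) and 9 (ΔTA), where all protein-coding genes were at 26.7%, 28.8%, 23.2% and 23.2%. The genes with a start site in a ΔTA-SOX9 domain and in no other culture list were *Lce1g* (3.31-fold), *Lce1h* (2.75-fold) and *Lce1k* (4.16-fold). As a group the *Lce* genes were covered over 4.82%, 5.63%, 5.30% and 9.17%, against 6.93%, 7.76%, 7.003% and 7.52% of all protein-coding genes.

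Of the domains lost with both WT and ΔHMG-SOX9, 9 were kept with ΔTA-SOX9 (9 of 180, 5%, interval 2.31 to 9.28%, whole list 3.57%). The highest scored was 7118 bp from the *Sprr3* start site, at 3.05-fold without DOX. Domains that all 3 constructs lost numbered 8 (4.44%, whole list 6.13%), and the highest scored of them lay 15533 bp from *Sprr2a1* (5.09-fold). Domains lost with WT SOX9 alone numbered 16 (8.89%, whole list 11.9%) and included one over the exon of *Sprr2d* (4.54-fold) and one 3536 bp from *Lce1c* (5.08-fold). Over the whole complex, 123 of the 180 domains without DOX were kept with all 3 constructs (68.3%, 61.0 to 75.1%, whole list 64.2%).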

How the data were processed

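MINT-ChIP libraries were made from sorted EpdSCs, with 12 samples each for H3K27ac, H3K4me1 and total H3, and from cultured EpdSCs in 2 barcoded libraries, 38 samples in all. Each skin library is listed with a high and with a low MNase digest, so the 12 samples are not independent. The 2 culture libraries are the low and the high digest and are not labelled as replicates. Samples were grouped by the time point and mark in their labels, and the W12 libraries also carry a W2 replicate under another barcode. The authors trimmed reads with Skewer, aligned them to mm10 with Bowtie2 (2.2.9 in the submitters' processing notes), removed duplicates with Picard, merged replicates with SAMtools (1.9), and called H3K27ac peaks with MACS2 (2.1.1) and H3K4me1 domains with epic2. Caller settings and controls are not given in the sources used here. The culture lists have a broad-peak layout, and which caller made them is not given in the sources used here.

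The deposited H3K27ac and culture lists give a fold enrichment (ratio) over background, an integer score and −log10 p-values and q-values, of which the fold, the score and the p-value were used. The deposited H3K4me1 lists give a p-value per domain in bins of 200 bp, and the depth behind them is unknown. For H3K27ac the fold steps gave a background pileup of 0.501 (D0), 0.299 (W1), 0.425 (W2), 0.677 (W6) and 0.412 (W12) reads, which limits how weak a peak each list could hold, and the read numbers printed are pileups recovered from those steps within 0.002.

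Intervals were matched by an overlap of at least 1 bp with Python 3.11.15, NumPy 2.4.6, SciPy 1.17.1 and Matplotlib 3.10.9. Each was assigned to the nearest protein-coding gene body, genes were described with 5 kb on both sides, and promoters with 1 kb. Because each list pools its replicates, no test across samples was made. Shares have exact Clopper-Pearson 95% intervals, beside the share of the whole list. The matching was tested on simulated intervals. Named were fixed genes of the complex, up to 5 highest-ranked intervals of each course, and further domains with the same course. The members, gene lists and rules were chosen with earlier results of these data known. The alternatives tried were an overlap of 50%, lists of equal length, the upper part of each list by rank, joined intervals, a span without the S100 genes and a flank of 20 kb. The 14 barcode files and the total H3 samples hold no intervals used here, and cultures of the mutants without DOX were not analysed here.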

Additional observations from a re-analysis of the deposited data

How the results depend on the processing

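No paired analysis was possible because every list pools its replicates, and for the same reason no replicate could be left out in turn. Of the 22 shares of lost and gained intervals, all moved by less than their counting interval with an overlap of 50% of the shorter interval, with lists of equal length and with joined intervals. Keeping only intervals in the upper part of their own list by rank moved 21 of them. For H3K27ac the lost shares were then 6.45% (W1), 12.9% (W2), 12.9% (W6) and 25.8% (W12), and the gained shares 18.9% (W1), 17.2% (W2) and 17.9% (W12). The share gained at W6 stayed within its counting interval. For H3K4me1 the lost shares were 6.25%, 18.8%, 11.3% and 16.3%, and the gained shares 1.52%, 0%, 5.19% and 2.78%, in the same order of time points. In culture 11.5% (WT), 4.17% (ΔHMG) and 8.33% (ΔTA) were lost, and 9.89%, 8.25% and 11.8% gained. These shares are given without the whole-list shares under the same cut, so they do not compare the locus with the genome. Without the S100 genes, 54.5% of H3K27ac peaks were lost (whole list 38.6%) and 56.5% gained (whole list 40.1%) at W2. At W12, 72.7% were lost (whole list 53.7%) and 66.7% gained (whole list 56.2%). These shares rest on few peaks, as the *Sprr*, *Lce* and filaggrin blocks held 6, 5 and 10 H3K27ac peaks at D0. Their counting intervals are wide and not given here, so an excess over the whole list is not shown. In 2 shares whose alternatives were chosen after the data were seen, the upper part by rank gave 5% for domains lost at W2 and found at W6 and W12 (whole list 4.84%), and 6.59% for domains of the WT culture alone (whole list 13.5%). The share of returning domains was thus close to that of the whole list among highly ranked domains. The filaggrin family's loss of H3K4me1 at W2 ran from 36.8% to 51.9% over its alternatives. H3K4me1 gains at W2 lay below the whole list in 4 of 5 alternatives, and not without the S100 genes (15%, interval 7.10 to 26.6%, whole list 19.98%). Culture gains with WT SOX9 did so in all 5. Differences of H3K27ac coverage from D0 to W2 turned with a 20 kb flank for *Lor* and *Ivl* (1.47 to -1.38 percentage points), *Lce* (-0.31 to 0.197) and other genes of the complex (-0.284 to 0.278, and 1.64 in the upper part by rank). The cause was not tested.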
